A study of Homo sapiens with 6 samples.

Results

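C-type lectin receptors are membrane proteins of myeloid cells that carry one or more C-type lectin domains. The 10 genes described here (CD209, MRC1, CLEC7A, CLEC4A, CLEC4E, CLEC5A, CLEC10A, CLEC12A, CLEC2B and LY75) were taken by symbol from the 17513 deposited genes, and all 10 were found. They were chosen by the higher FPKM and counts of CD209 in the shSPP1#2 libraries, which were already known, so their differences between the groups are given as a description, with no p-value.

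The cells were macrophages made from THP1, a monocytic leukemia line of human origin, and exposed over 48 h to conditioned medium of KYSE150, an esophageal squamous carcinoma line. For the shSPP1#2 group the KYSE150 cells carried a hairpin named for SPP1, which encodes osteopontin, and for the shNC group a hairpin labelled NC; each group has 3 libraries of polyadenylated RNA. One hairpin stands for the knockdown, and the labels do not say whether replicates were cultured apart, so a p-value here reflects the variation among these 6 libraries alone, which may be technical. The sample labels name KYSE150 itself, so the cells were checked by markers.

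Of 20 macrophage markers, 18 reached 1 FPKM (fragments scaled to gene length and library depth) in each library, while the complement chains C1QA and C1QB stayed at or below 0.40 FPKM. The most abundant were LAPTM5, CTSB, CTSD and ITGAX, at 280.59 to 823.1 FPKM. Of 20 squamous markers present, 2 reached that level (LAMB3 and KRT15), KRT16 and EGFR stayed at or below 0.93 FPKM, and the keratins KRT5 and KRT14 lay at or below 0.04 FPKM. Libraries held 18113591 to 20626346 estimated counts. On the first principal component (34.9% of the variance) both libraries numbered 2 stood apart, at 7.38 (shNC) and 9.93 (shSPP1#2) against -7.48 to -0.29 for the other 4. The tested receptors, PKD1, PRG2, FCER1G and TYROBP are therefore also given without them.

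Receptors of this family recognise sugars, lipids or proteins on microbes, dying cells and other leukocytes. Some internalise their ligand for degradation and antigen presentation. Others signal: CLEC7A through a tyrosine motif of its own, CLEC4E and CLEC5A through the adaptors FCER1G and TYROBP, and CLEC4A and CLEC12A through inhibitory motifs that recruit phosphatases. CD209, MRC1 and CLEC10A are widely used as markers of macrophages and dendritic cells exposed to IL-4.

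By level the family was dominated by CD209, which made up 56.3% to 58.8% of the summed FPKM of the 10 genes in every library. LY75 and CLEC5A followed at means of 4.65 and 4.02 FPKM over the 6 libraries, then CLEC7A at 1.93, CLEC4A at 0.632, CLEC4E at 0.320 and CLEC2B at 0.252 FPKM. CLEC10A, MRC1 and CLEC12A did not exceed 0.06 FPKM in any library. In this order 5 of the 9 neighbouring pairs had ranges that did not overlap. LY75 and CLEC5A, CLEC4E and CLEC2B, and the 3 lowest genes could not be ordered beyond their spread. The genes CD209, LY75, CLEC5A and CLEC7A reached 1 FPKM in every library. The plot of levels by library shows this order.

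**Figure D1:**
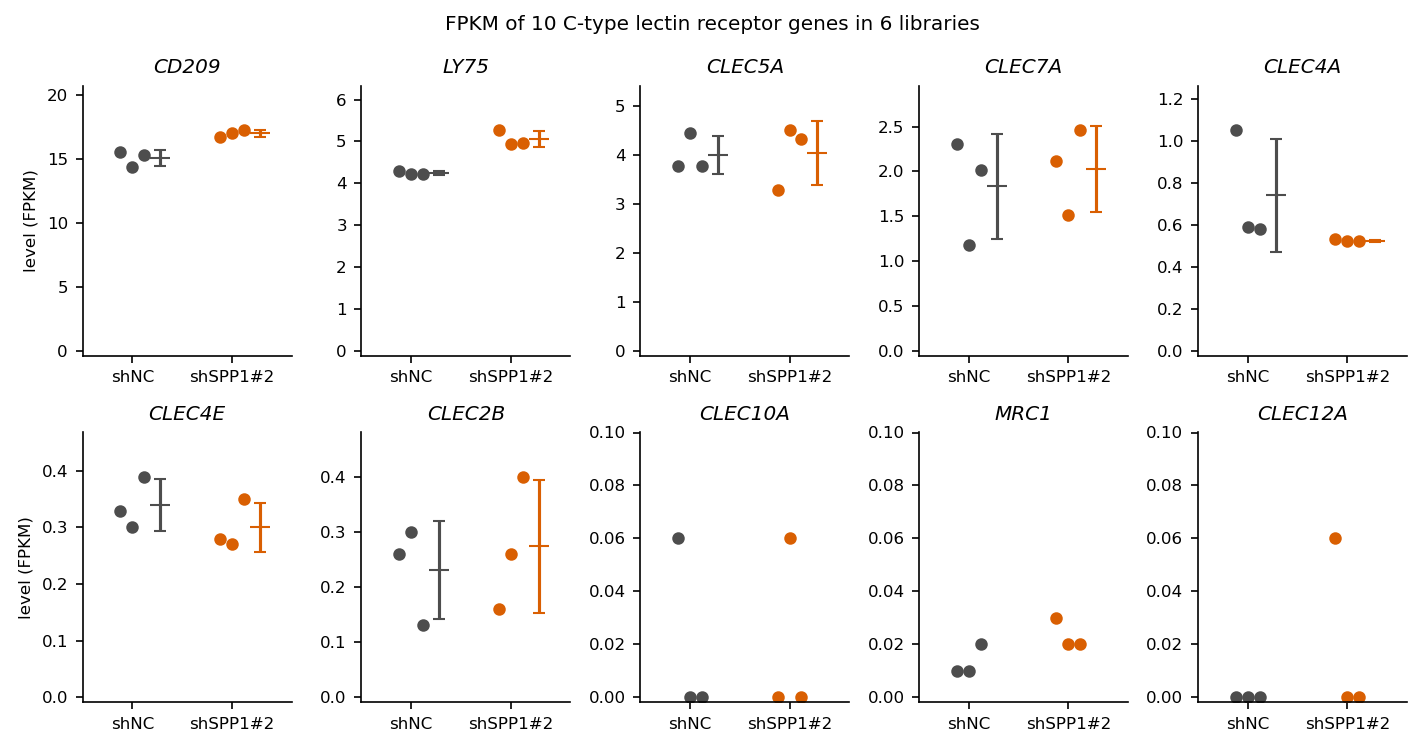
Each panel plots 1 receptor gene, with the level in FPKM on the vertical axis and the 3 libraries of shNC (grey) and shSPP1#2 (orange) medium as points; bars give the mean and SD, left out for the 3 genes with at most 3 counts in a library. CD209 and LY75 lie higher in all 3 shSPP1#2 libraries, whereas the points of CLEC5A, CLEC7A, CLEC4E and CLEC2B overlap.

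Among the endocytic receptors, CD209 and LY75 were both higher in every shSPP1#2 library than in any shNC library. CD209, also called DC-SIGN, binds mannose- and fucose-rich glycans and the adhesion molecule ICAM3. In FPKM it measured 15.58, 14.41 and 15.31 with shNC medium (replicates 1, 2 and 3) and 16.74, 17.04 and 17.28 with shSPP1#2 medium. The lowest shSPP1#2 value thus lay above the highest shNC value. The group means were 15.1 ± 0.613 FPKM and 17.0 ± 0.271 FPKM (SD, n = 3 each), from 1066.22 to 1435.23 estimated counts per library. In the edgeR fit the log2 fold change was 0.17 (standard error 0.047, 95% interval 0.074 to 0.27), or 1.13-fold. Of all tested genes, 7.81% had as high a log2 fold change. In bulk RNA, more cells of a type and more RNA per cell cannot be told apart.

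LY75, or DEC-205, a relative of the mannose receptor that delivers antigen for presentation, showed the same direction. Its FPKM values were 4.29, 4.23 and 4.21 with shNC medium and 5.27, 4.93 and 4.96 with shSPP1#2 medium. No library of one group reached the range of the other. The means were 4.24 ± 0.042 and 5.05 ± 0.188 FPKM (SD, n = 3 each), and the log2 fold change was 0.25 (standard error 0.060, 95% interval 0.12 to 0.37; 1.19-fold). The 3 shNC values varied by 0.98% of their mean, less than the 4.17% that counting error alone gives for 576 counts, so the SD of these 3 libraries is smaller than the counting error. Of CD209, the shSPP1#2 values varied by 1.59%, against 2.65% from counting.

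CD209 was higher in 16 of 16 alternative fits and LY75 in 17 of 17. These fits reuse the same 6 libraries, whose groups do not overlap for either gene, so the shared sign is no separate support. With each library left out in turn, the log2 fold change ran from 0.15 (without shNC replicate 2) to 0.20 for CD209, and from 0.22 (without shSPP1#2 replicate 1) to 0.27 for LY75. Without both libraries numbered 2, CD209 measured 0.15 (0.030 to 0.26) and LY75 0.26 (0.10 to 0.41). Of the 10 receptors, 6 passed the low-count filter, and these were CD209, LY75, CLEC5A, CLEC7A, CLEC4A and CLEC4E. None of the 6 was called by edgeR at an adjusted p below 0.05, where 0 of 13555 genes, or 0.00%, were called. In CPM, counts scaled to library size with TMM factors, 2 of the 6, CD209 and LY75, lay higher without overlap, as did 5.63% of all tested genes, and none of the 6 lay lower without overlap, as 5.49% of tested genes did. In FPKM the same 2 receptors lay higher without overlap, with 5.50% of tested genes. At an unadjusted edgeR p under 0.05 there were 928 genes (6.85%). DESeq2 called 13 of the 4264 genes to which it gave an adjusted p (0.305%). EdgeR without a low-count filter called 18 (0.103%), and edgeR with replicate number as a block 59 (0.435%). None of these calls was a receptor. Which receptors had an adjusted p from DESeq2 is not given here, and those without one could not be called by it. Since the receptors were chosen with this contrast known, these shares and counts of calls are no test of them, and nothing is read from them.

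**Figure D2:**
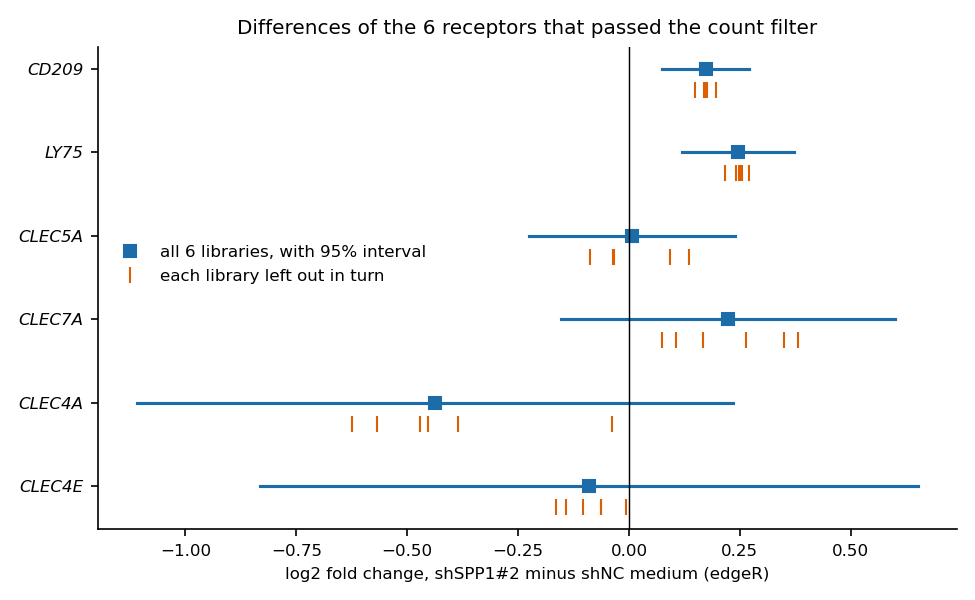
The horizontal axis gives the edgeR log2 fold change (shSPP1#2 minus shNC medium) of the 6 receptors that passed the count filter; squares with lines are the estimate from 6 libraries and its 95% interval, and ticks the estimates with each library left out. The intervals run from 0.074 to 0.27 for CD209 and from 0.12 to 0.37 for LY75, and are wider for the less abundant CLEC7A, CLEC4A and CLEC4E.

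CD209 lies on the minus strand of chromosome 19, chr19:7739994-7747564, and LY75 on the minus strand of chromosome 2, chr2:159803355-159904749 (GENCODE v29, GRCh38). They share no locus. RefSeq promoter windows on GRCh38.p14 were found for 5 of the 10 genes (CD209, LY75, CLEC5A, CLEC4E and CLEC12A). Those of the 3 most abundant receptors are shown, since CD209 and LY75 differed in the same direction and CLEC5A did not. They run 5′ to 3′ on the minus strand and stop where the gene starts in either annotation, at chr19:7747565-7747784, chr2:159904757-159905006 and chr7:141947008-141947224.
CD209: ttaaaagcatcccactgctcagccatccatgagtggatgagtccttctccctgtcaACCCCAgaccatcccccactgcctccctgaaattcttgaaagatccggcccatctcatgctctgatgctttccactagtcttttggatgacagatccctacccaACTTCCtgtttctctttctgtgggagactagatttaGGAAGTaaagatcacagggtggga
LY75: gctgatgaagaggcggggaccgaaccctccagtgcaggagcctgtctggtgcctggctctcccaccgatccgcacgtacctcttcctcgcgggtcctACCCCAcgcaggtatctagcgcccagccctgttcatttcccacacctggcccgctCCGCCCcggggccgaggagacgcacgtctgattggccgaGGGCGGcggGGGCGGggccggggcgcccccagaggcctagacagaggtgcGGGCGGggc
CLEC5A: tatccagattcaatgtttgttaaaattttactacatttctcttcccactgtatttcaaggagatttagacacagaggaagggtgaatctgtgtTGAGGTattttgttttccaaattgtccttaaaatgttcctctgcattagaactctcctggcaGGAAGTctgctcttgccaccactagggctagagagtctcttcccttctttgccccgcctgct
Capitals mark matches on either strand to the ETS core GGAAGT, the RUNX core TGNGGT or the GC box GGGCGG; no motif overlapped another in these stretches. Also searched, without a match in these windows, were the STAT6 site (TTC and GAA spaced by 4 bases), the AP-1 site TGANTCA and the TATA box TATAAA. In the 250 bases before the RefSeq start, CD209 held 2 ETS cores and CLEC5A 1, whereas LY75 held none and 4 GC boxes. CD209 and LY75 each held 1 match to TGNGGT there, with the same letters (ACCCCA). CLEC5A held 2, of which 1 lies in the stretch shown (TGAGGT). Of the windows not shown, that of CLEC12A held 1 match to TGNGGT and no ETS core. That of CLEC4E held 2 ETS cores and no match to TGNGGT. Of 35116 RefSeq windows of this length, 19.5% held the ETS core, 37.7% TGNGGT and 42.6% the GC box. The STAT6 site was in 5.4%, the AP-1 site in 6.6% and the TATA box in 10.7%. The G and C share was 49.6% for CD209, 43.6% for CLEC5A and 71.6% for LY75, beside a median of 58.0%. A match is a description of letters, not of binding.

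Reads of LY75 are shared with a read-through gene. LY75-CD302 joins LY75 to CD302, the C-type lectin gene downstream of it, and 57.0% of the exonic bases of LY75 also lie in its exons. The files gave LY75-CD302 15.51, 0 and 3.51 counts in the shNC replicates and 76.45, 0 and 0 in the shSPP1#2 replicates. The 76.45 counts of shSPP1#2 replicate 1 were 9.3% of its LY75 and read-through sum, against at most 2.5% in the other 5 libraries. Added together and divided by the library total without TMM factors, the sums were 30.28, 29.09 and 29.16 CPM in shNC medium and 39.96, 33.93 and 34.12 in shSPP1#2 medium. The groups stayed apart, and the log2 fold change of LY75 became 0.28 (95% interval 0.14 to 0.43). CD302 itself measured 2.83, 2.12 and 2.61 FPKM in shNC medium and 1.93, 2.53 and 2.79 FPKM in shSPP1#2 medium. Its groups overlapped, with a log2 fold change of -0.069 (-0.34 to 0.20, edgeR adjusted p = 0.96). Its lowest library was the one with the most read-through counts.

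**Figure D3:**
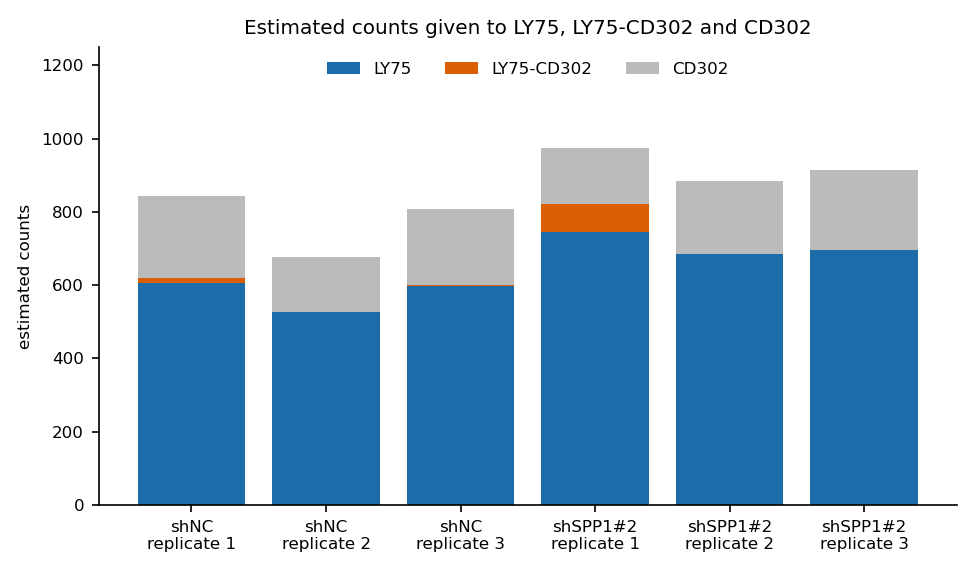
Stacked bars give, for each of the 6 libraries, the estimated counts assigned to LY75 (blue), LY75-CD302 (orange) and CD302 (grey). The LY75 bars of the shSPP1#2 libraries (685.51 to 745.65 counts) exceed those of shNC (526.86 to 604.58), and the read-through portion is large in shSPP1#2 replicate 1.

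CLEC4M, a close copy of CD209 that lies 0.0156 megabases away, had at most 1.29 counts in a library. Estimated counts divide reads between such copies, so both are uncertain to that extent; CD209 had at least 1066.22 counts. MRC1 and CLEC10A, named above with CD209 as markers of exposure to IL-4, were at the edge of detection. The mannose receptor MRC1 (chr10:17809344-17911170), which internalises mannosylated proteins, had 1, 0.97 and 2 counts in shNC medium and 3, 2 and 2 in shSPP1#2 medium. CLEC10A (chr17:7074537-7080307), a receptor for galactose-type sugars, had 2 counts in shNC replicate 1 and in shSPP1#2 replicate 2 and 0 in the other 4 libraries. A count of 0 allows up to 3 counts, or 0.145 to 0.166 CPM of the library total without TMM factors; such limits cover counting error only. Both genes lay at or under that floor in every library, so no difference was detectable at this depth and no fold is given. The high level of CD209 was therefore not accompanied by comparable levels of MRC1 or CLEC10A in any library.

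The groups overlapped for each of the activating receptors CLEC5A, CLEC7A and CLEC4E. In CPM, though not in FPKM, CLEC7A was higher in each shSPP1#2 library than in the shNC library of the same number. The labels do not say that these numbers pair the libraries. CLEC5A, which pairs with TYROBP, lies on chr7:141927357-141947007 and overlaps MGAM on the opposite strand; since no strand setting is given, reads of the 2 genes may not be told apart where they overlap. Its levels were 3.78, 4.46 and 3.78 FPKM in shNC medium and 3.29, 4.51 and 4.32 FPKM in shSPP1#2 medium. The groups overlapped fully, and the shSPP1#2 group held both the lowest and the highest library. The log2 fold change was 0.0066 (standard error 0.11, 95% interval -0.22 to 0.24) and changed sign with the library left out, from -0.089 to 0.14; without both libraries numbered 2 it was -0.0032. The interval of this gene alone does not exclude a difference of the size seen for CD209.

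CLEC7A, or dectin-1, the receptor for fungal beta-glucans (chr12:10116777-10130258), measured 2.31, 1.18 and 2.01 FPKM in shNC medium and 2.11, 1.51 and 2.46 FPKM in shSPP1#2 medium. In both groups the library numbered 2 was the lowest, while CLEC5A was highest there. The log2 fold change of CLEC7A was 0.22, close to that of LY75, but less precise (standard error 0.18, 95% interval -0.15 to 0.60). It ran from 0.074 without shNC replicate 2 to 0.38 without shSPP1#2 replicate 2, and was 0.23 (-0.13 to 0.59) without both libraries numbered 2. In TMM-scaled CPM it measured 3.79, 2.74 and 4.17 in shNC and 4.51, 3.20 and 4.85 in shSPP1#2 medium. It was thus higher in 3 of 3 same-numbered pairs, as CD209 and LY75 were, whereas in FPKM the pair numbered 1 went the other way. The share of all tested genes higher in 3 of 3 pairs was not computed, and the labels do not give the pairing. With replicate number as a block the log2 fold change was 0.23 (-0.076 to 0.54). The 2 deposited scales differed for this gene. The length implied by its counts and FPKM was 1660 bases in shNC replicate 1 and 1996 to 2298 bases in the other libraries, whereas for LY75 it was 6876 to 6885 bases throughout. On log2(FPKM + 1) the limma estimate for CLEC7A was 0.10.

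CLEC4E, or Mincle, which senses mycobacterial glycolipid and damaged cells (chr12:8533305-8540963), had 10.44 to 13.2 counts in shNC and 9.92 to 12.56 counts in shSPP1#2 medium. Its levels of 0.27 to 0.39 FPKM overlapped between the groups. The log2 fold change of -0.090 (-0.059 without both libraries numbered 2) had a 95% interval from -0.83 to 0.65, which includes the difference of CD209 and larger ones of either sign.

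Of the inhibitory receptors, CLEC4A was measurable and CLEC12A was not. CLEC4A, or DCIR (chr12:8123632-8138607), measured 1.05, 0.59 and 0.58 FPKM in shNC medium and 0.53, 0.52 and 0.52 FPKM in shSPP1#2 medium. In FPKM all shSPP1#2 libraries lay below all shNC libraries, as for 5.05% of tested genes. In CPM the groups overlapped, with 1.65, 0.783 and 0.921 in shNC and 0.873, 0.851 and 0.775 in shSPP1#2 medium. The log2 fold change was -0.44 (standard error 0.32, 95% interval -1.11 to 0.24). It rested on shNC replicate 1, with 33.99 counts against 14.0 to 18.98 elsewhere, and was -0.039 without that library and -0.64 without both libraries numbered 2. The 3 shSPP1#2 values varied by 1.1%, where counting error at 17.0 counts gives 24.3%. CLEC12A (chr12:9951316-9995694), an inhibitory receptor of myeloid cells and a leukemia marker, had 1 count in shSPP1#2 replicate 1 and 0 in the other 5 libraries. It overlaps CLEC12A-AS1 and CLEC1B on the opposite strand.

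CLEC2B, or AICL (chr12:9852984-9870136), a ligand of the natural killer cell receptor KLRF1, did not pass the count filter. It had 8, 8 and 3.99 counts in shNC medium and 4.99, 7.85 and 11.99 in shSPP1#2 medium, or 0.13 to 0.40 FPKM. The ranges overlapped. CLEC2B, CLEC4A, CLEC4E, CLEC7A and CLEC12A, 5 of the 10 receptors, lie within 2.01 megabases of chromosome 12, and none of them exceeded 2.46 FPKM in any library. Their cluster neighbours CLEC4D and CLEC12B had at most 1 and 1.64 counts, and CLEC6A was not among the genes of the files. The higher-level receptors CD209, LY75 and CLEC5A all lie on other chromosomes.

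Lectin-domain genes outside this set had no call, in a fit that called 0 of all 13555 tested genes. Of 71 listed genes, 56 were present and 26 tested; 14 had a positive and 12 a negative log2 fold change, with a median of 0.0030, beside -0.00030 over all tested genes. The 6 tested receptors had a median of 0.090, with 4 positive and 2 negative. By edgeR 0 of the 26 passed, with 3 at an unadjusted p under 0.05, beside 6.85% of all tested genes. The most abundant were thrombomodulin, THBD, at 243.86 to 267.24 FPKM, the secreted growth factor CLEC11A, CD93 and the collagen receptor MRC2. CD93, a receptor of myeloid and endothelial cells, differed by 0.039 on the log2 scale, THBD by 0.00080 (-0.10 to 0.10) and MRC2, a close relative of MRC1 and LY75, by 0.035 (-0.057 to 0.13). MRC2 measured 39.4 to 42.08 FPKM, far above LY75.

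The smallest p belonged to PKD1, a membrane protein of cilia with a lectin domain, at 23.3 ± 1.15 FPKM in shNC and 26.8 ± 1.89 FPKM in shSPP1#2 medium (SD, n = 3 each). Its log2 fold change was 0.18 (0.083 to 0.29, edgeR adjusted p = 0.442), and 0.20 without both libraries numbered 2. With replicate number as a block it was called (log2 fold change 0.18, edgeR adjusted p = 0.0211), as were 59 of all 13555 genes. PKD1 has near-identical pseudogenes, which makes its estimated counts uncertain. PRG2, an eosinophil granule protein with a lectin domain, measured -0.20 (-0.32 to -0.082, edgeR adjusted p = 0.486) and -0.15 without both libraries numbered 2, CLEC11A -0.16 (adjusted p = 0.618) and ASGR2 -0.44 (adjusted p = 0.792). ASGR2 encodes a chain of the asialoglycoprotein receptor.

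**Figure D4:**
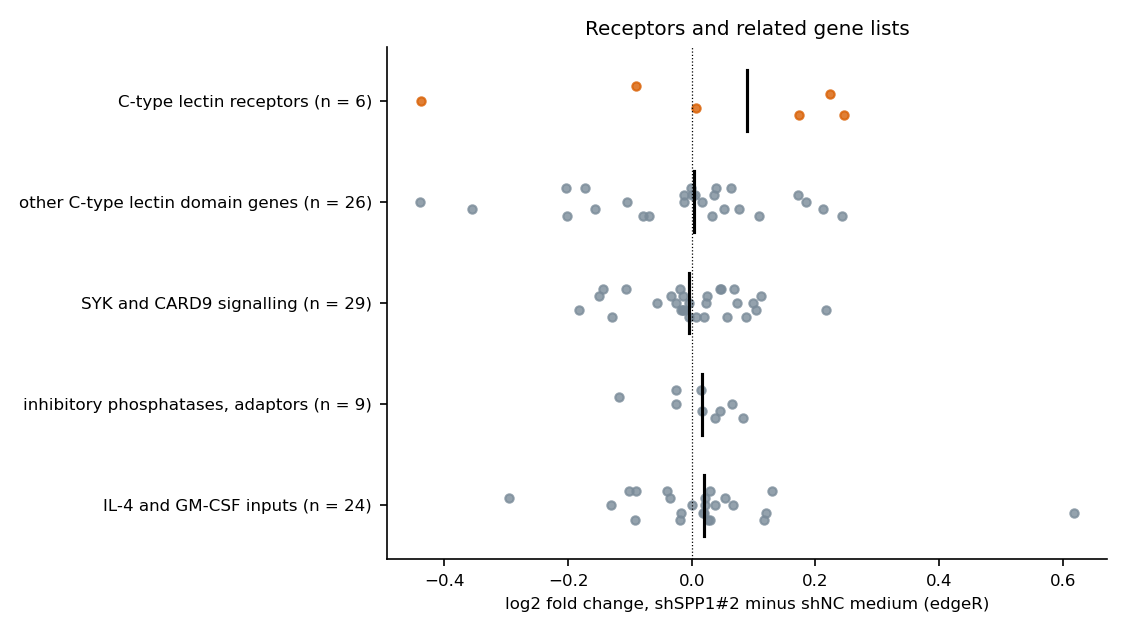
Points give the edgeR log2 fold change (horizontal axis, shSPP1#2 minus shNC medium) of every tested gene in 5 lists, with the number tested in brackets and the list median as a black line. The medians of the 4 related lists lie between -0.0039 and 0.020, and the 6 tested receptors (orange) spread from -0.44 to 0.25.

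Signalling genes below the receptors showed no call either, in the fit that called 0 of all 13555 tested genes. Of 29 SYK and CARD9 pathway genes, all tested, 14 were positive and 15 negative, with a median of -0.0039. EdgeR called 0. Beside 6.85% of all tested genes, 1 pathway gene had an unadjusted p under 0.05. That gene was FCER1G, the adaptor of CLEC4E, at 408 ± 42.2 FPKM in shNC and 361 ± 14.1 FPKM in shSPP1#2 medium (SD, n = 3 each). Its log2 fold change was -0.18 (-0.31 to -0.055, edgeR adjusted p = 0.575), -0.089 without shNC replicate 2, and -0.10 without both libraries numbered 2. TYROBP, the adaptor of CLEC5A, measured -0.13 (-0.27 to 0.0070, edgeR adjusted p = 0.746), and 0.0026 without both libraries numbered 2. RASGRP3, TAB1 and PIK3CD measured 0.22, -0.14 and -0.15 (edgeR adjusted p = 0.73, 0.732 and 0.742). The kinase PRKCD and the adaptor TAB2, also abundant, differed by -0.019 and -0.018. Both adaptors were far more abundant per gene length than CLEC4E and CLEC5A, TYROBP at 144.2 to 188.54 FPKM.

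Among 9 phosphatases and adaptors of inhibitory signalling, 6 were positive and 3 negative, with a median of 0.017. EdgeR called 0, as over all tested genes. Beside 6.85% of all tested genes, 1 of the 9 had an unadjusted p under 0.05. That was the adaptor DOK2 (-0.12, 95% interval -0.24 to -0.0017, edgeR adjusted p = 0.724). PTPN6 and PTPN11, phosphatases recruited by inhibitory motifs, measured 0.017 and 0.015, INPP5D and INPPL1 0.038 and -0.026, and the ubiquitin ligases CBL and CBLB 0.082 and 0.065.

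Genes of IL-4 and GM-CSF input, which raise CD209 in monocyte cultures, had no call, where 0 of all 13555 tested genes had one. All 24 were tested, 15 positive and 9 negative, with a median of 0.020. EdgeR called 0. Beside 6.85% of all tested genes, 1 of the 24 had an unadjusted p under 0.05. That was CSF2RB, the shared beta chain of the GM-CSF receptor, at 0.12 (0.0019 to 0.24, edgeR adjusted p = 0.724). The IL-4 receptor chain IL4R measured -0.090 (-0.19 to 0.014), its transcription factor STAT6 -0.040 (-0.13 to 0.051) and STAT5A -0.092. SPI1, or PU.1, an ETS factor of myeloid cells, measured -0.036 (-0.13 to 0.058), ETS1 0.022 and CEBPB 0.021. IRF4 was at 0.11 to 0.28 FPKM, with a log2 fold change of 0.62 and an interval from -0.080 to 1.32.

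Dendritic cells also carry CD209 and LY75. Of 18 dendritic cell markers, 16 were present (not CD207 or FCER1A), and 10 reached 1 FPKM in every library. Their summed level was 294.6 to 299.7 FPKM in shNC and 281.2 to 292.6 FPKM in shSPP1#2 medium, with no overlap. FSCN1 alone gave 179.39 to 197.86 FPKM of it, followed by CD83, CCL22 and CADM1. The single markers went both ways: of 11 tested, 6 were positive and 5 negative, with a median of 0.019. EdgeR called 0, as over all tested genes. At an unadjusted p under 0.05 there were 2 higher and 2 lower of the 11, beside 6.85% of all tested genes. XCR1 and CLEC9A, which define cross-presenting dendritic cells, stayed at or below 0.13 and 0.03 FPKM. Macrophage marker sums overlapped, at 3253.2 to 3452.1 and 3204.2 to 3328.8 FPKM. Squamous marker sums were 20.4 to 21.7 and 21.8 to 22.2 FPKM with no overlap, and LAMB3 alone gave 14.5 to 16.57 FPKM of them. How often sums of other gene lists do not overlap was not computed. The part of these markers in the receptor differences was not tested.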

How the data were processed

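Per the labels, the authors sequenced polyadenylated RNA of 6 libraries. They deposited estimated counts and FPKM per gene; the tools HISAT2 2.0.4, Bowtie2 2.2.5 and RSEM and the build GRCh38.p13 come from the submitters' processing notes, which state neither role nor order here. The annotation, any strand setting and low-count filters were not given in the sources used here. Of the deposited estimated counts, 78.9% to 80.4% per library were not whole (tolerance 0.005), since reads are divided between genes. Stray text lines (20) were dropped from the FPKM table.

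Estimated counts were rounded, filtered with filterByExpr (13555 genes kept), scaled by TMM and tested with edgeR 4.0.16 (quasi-likelihood, R 4.3.3), shSPP1#2 minus shNC, with Benjamini-Hochberg adjustment over all tested genes. Intervals come from that fit. The fit was tested on simulated data with 200 genes changed 2-fold, of which it recovered 200, with 17 false calls. Smaller changes, of the size seen for CD209 and LY75, were not simulated. Members, lists and tests were chosen with earlier results of these data known. Named genes are the members, their neighbours or copies, and per list the 4 of smallest p and the 4 most abundant. One further list of signalling genes was fitted and is not reported here. Same-numbered libraries deviated together from their group means (r = 0.209, 0.326 and 0.101 over 10581 genes), while unlike-numbered libraries had r from -0.269 to 0.125, the highest for shNC replicate 1 with shSPP1#2 replicate 3, above the weakest same-numbered pair. These values do not settle whether the numbers pair the libraries, and the labels do not say. The main fit, with its intervals and p-values, did not use the numbers. They entered only the replicate block, given as an alternative. Alternatives were RLE and upper-quartile scaling, 2 other filters, a replicate block, DESeq2 1.42.0, limma-voom (limma 3.58.1), limma on log2(FPKM + 1) and log2(FPKM + 0.1), and each library left out. Leaving out both libraries numbered 2, and adding LY75-CD302 to LY75, were chosen after seeing the data. Positions are from GENCODE v29 (GRCh38) and promoters from RefSeq (GRCh38.p14). Motifs were searched on both strands. The implied length is counts divided by FPKM and by the library total.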

Additional observations from a re-analysis of the deposited data

How the results depend on the processing

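Of the 6 receptors that passed the count filter, 3 or 4 had a positive log2 fold change in each alternative. With the filter of CPM of at least 1 in 3 libraries only 4 of them were tested, without CLEC4A and CLEC4E, and all 4 were positive. Over all genes the edgeR count of 0 became 18 with no low-count filter, 59 with the replicate block (31 higher, 28 lower), and 7 with both libraries numbered 2 left out. It was 13 by DESeq2 (over 4264 genes with an adjusted p), 1 by limma-voom and 1 by limma on log2(FPKM + 0.1). With single libraries left out it ran from 1 to 10. Among the other lectin-domain genes the count of 0 became 1 with the replicate block, PKD1. The block changed no other call among the receptors and the related lists of lectin-domain, signalling, inhibitory and IL-4 or GM-CSF genes. Calls among the cell type markers were not counted with the block. The causes were not tested. CLEC5A changed sign between alternatives, from -0.089 to 0.14, and CLEC4A moved toward 0 without shNC replicate 1 (-0.039). Depth limits MRC1, CLEC10A, CLEC12A and CLEC2B, which entered only the fits by DESeq2 and with no low-count filter, and leaves CLEC4A and CLEC4E with intervals wider than the difference of CD209.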
